A study of Mus musculus with 6 samples.

Results

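The acute phase proteins are plasma proteins that the liver secretes in changed amounts during injury or infection. Their messenger RNAs were followed here for 10 mouse genes given by name: Saa1, Saa2, Saa3 and Saa4, which encode serum amyloid A proteins, Hp (haptoglobin), Orm1 and Orm2 (alpha-1-acid glycoproteins), Apcs (serum amyloid P), Lbp (lipopolysaccharide-binding protein) and Itih4 (an inter-alpha-trypsin inhibitor heavy chain). All 10 were present among the 23394 genes of the deposited tables, and all 10 passed the filter on low counts that left 15619 genes for testing. Each gene was represented by 1 Ensembl transcript, the one whose values averaged highest across the 6 libraries.

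The libraries came from liver cells that were selected on magnetic columns for F4/80, a surface antigen of mouse macrophages. The KO group held 3 libraries from knockout mice and the WT group 3 libraries from wild-type mice. All donors were male C57BL/6 animals, 3 months of age, on normal chow, and all had been injected intraperitoneally with CCl4 (carbon tetrachloride), which injures hepatocytes. No library from untreated animals was analysed here, so the response to CCl4 itself was not measured. The labels name neither the deleted gene nor the promoter or cell type that drives the deletion, and they do not say whether a library is 1 animal or a pool, so the p-values measure only the spread between these samples.

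In an acute phase response, macrophages and other cells release interleukin-6, interleukin-1 and tumour necrosis factor, and hepatocytes answer through STAT3, C/EBP factors and NF-kB. Positive acute phase proteins are then made in larger amounts, and negative ones, such as albumin, in smaller amounts. In mice Saa1, Saa2 and Apcs are strong liver responders, while Saa3 is made largely outside hepatocytes, by macrophages, fat cells and stromal cells. Because albumin (Alb) is the most abundant secreted hepatocyte transcript, each member was compared between KO and WT both as it stood and relative to Alb in the same library.

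The libraries held 10790842 to 19163317 reads in KO and 15027644 to 22157238 reads in WT, with 1 transcript per gene. Mitochondrial genes held 16.4%, 16.2% and 19.95% of these reads in KO replicates 1, 2 and 3, and 16.6%, 27.5% and 6.19% in WT replicates 1, 2 and 3. The mean log2 level of the 10 members, set to 0 at the WT mean, was 0.68, -0.12 and 0.61 in KO and -0.16, 1.04 and -0.87 in WT. The -0.12 of KO replicate 2 includes Orm2, which had 0 reads there and stood at -4.76 on this scale. Saa1, Saa2 and Hp were also below 0 in that library, and the other members were above it. For the mitochondrial share and for the members' mean, WT replicate 2 was highest and WT replicate 3 lowest. The part of this difference between libraries in the members' values was not tested. Values below are the authors' normalised counts, that is read counts divided by 1 factor per library. The labelled cell type was visible in its markers: Adgre1, which encodes F4/80, stood at 4441 to 6673 normalised counts in KO and 4463 to 7644 in WT, and none of the 12 Kupffer cell and macrophage markers was at 0 in all libraries. Hepatocyte RNA was present as well. The 20 hepatocyte markers were chosen to hold neither Alb nor a gene of the acute phase protein lists used here. Their summed level was 32843 to 55389 in KO and 7625 to 12625 in WT, without overlap. None of the 20 was at 0 in all libraries. Of the Kupffer cell and macrophage markers 5 of 12 were above 0, and limma called none of them, with 4 at an unadjusted p under 0.05 (summed level 71840 to 92744 in KO and 70620 to 166685 in WT). Of the other marker lists limma called 1 of 10 monocyte markers lower, and 1 of 12 stellate cell markers, 1 of 8 tested cholangiocyte markers, 4 of 12 endothelial markers and none of 12 lymphocyte markers (0 at an unadjusted p under 0.05) higher in KO. In such bulk samples fewer cells of a type and less RNA per cell cannot be told apart.

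None of the 10 members differed between KO and WT at an adjusted p under 0.05 in limma's test over all 15619 genes, where 2.44% of genes were called, 2.09% higher and 0.352% lower in KO. Before adjustment 4 members had p under 0.05, namely Saa3, Saa4, Lbp and Itih4, each with the higher mean in KO, as did 18.0% of all genes in either direction. The counts of called members by edgeR's quasi-likelihood test, DESeq2 and limma-voom on the recovered reads were also 0, where DESeq2 gave an adjusted p for 9 of the 10, all but Saa1. The estimated log2 differences were above 0 for 6 members and below 0 for 4, with a median of 0.89, beside 0.05 over all tested genes. Without WT replicate 3 the median of the members was 0.32, beside 0.05 over all genes. KO and WT libraries were fully separate for 1 of the 10 members, Orm1, beside 22.9% of all genes. The 2.44% rests on 381 genes, 85.6% of them higher in KO, beside 68.1% of 1409 genes with DESeq2. The limma number was 809, 138 and 8 when KO replicate 1, 2 or 3 was left out, and 174, 299 and 210 when WT replicate 1, 2 or 3 was left out. A missing call does not show that levels were alike: the 95% interval was narrowest for Lbp, at 0.28 to 1.71, and widest for Orm2, at -4.29 to 1.29.

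**Figure D1:**
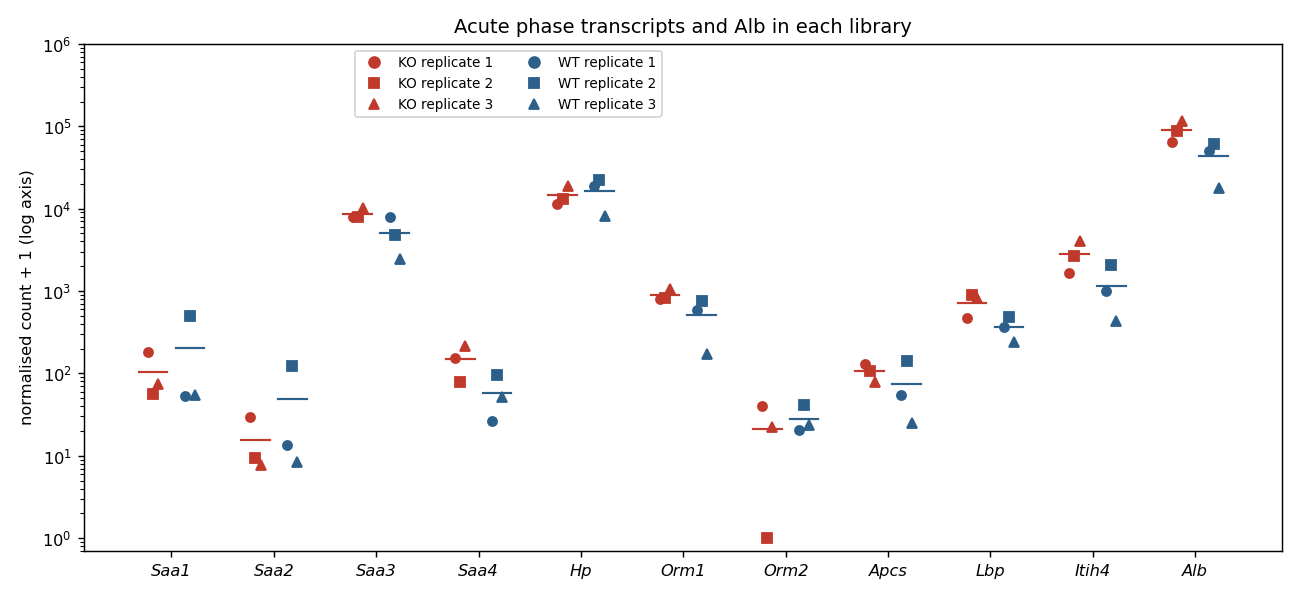
Normalised count plus 1 on a log axis for the 10 acute phase genes and Alb, with 1 symbol per library (KO left, WT right of each name) and a bar at the mean of 3 libraries. Saa3 and Hp stand highest among the members, Saa1 and Saa2 are highest in WT replicate 2, and Orm2 is listed at 0 in KO replicate 2.

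Per kilobase of the kept transcript, Alb was at 44012 normalised counts in KO and 21236 in WT libraries. Saa3 stood at 15671 per kilobase in KO and 9114 in WT, and Hp at 10805 in KO and 12226 in WT. Saa3 ran from 14255 to 18310 and Hp from 8586 to 13985 in KO, without overlap, whereas Saa3 ran from 4390 to 14338 and Hp from 5997 to 16581 in WT, with overlap. Orm1 followed at 1147 and Itih4 at 944 per kilobase in KO, against 652 and 388 in WT, and both genes overlapped within each genotype. Lbp stood at 287 in KO, clear of Itih4, and at 144 in WT, where Saa1 was above it at 331. The mean levels of Saa1, Apcs, Saa4, Orm2 and Saa2 lay between 23.9 and 168 per kilobase in KO and between 27.3 and 331 in WT. From Lbp downwards in KO, and from Saa1 downwards in WT, each gene's library values overlapped those of the next in order.

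The members differed in how much of the summed acute phase signal they held. Hp alone held 50.2%, 51.4% and 53.2% of the summed normalised counts of the 10 genes in KO replicates 1, 2 and 3, against 65.3%, 71.3% and 70.1% in WT replicates 1, 2 and 3. Saa3 held 34.8%, 30.7% and 28.8% in KO and 27.4%, 15.3% and 21.2% in WT. Itih4 held 7.24%, 10.4% and 11.6% in KO and 3.42%, 6.54% and 3.74% in WT. Orm1 held 3.43%, 3.18% and 2.99% in KO and 2.05%, 2.405% and 1.48% in WT. The KO libraries thus had the lower Hp share and the higher Saa3, Itih4 and Orm1 shares, in each case without overlap. Shares of 1 total are not separate observations, since a lower Hp share raises the others. Overlap of such shares was not counted over all genes. These shares were chosen for description after the values were seen and were not tested.

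Serum amyloid A proteins travel with high-density lipoprotein and are precursors of amyloid. The genes form a cluster on chromosome 7 of GRCm38: Saa3 (ENSMUSG00000040026) at 46711998 to 46715700, Saa4 (ENSMUSG00000040017) at 46727998 to 46732603, Saa1 (ENSMUSG00000074115) at 46740497 to 46742980, all on the minus strand, and Saa2 (ENSMUSG00000057465) at 46751833 to 46754313 on the plus strand. The kept transcripts have 4 exons each. Saa1 and Saa2 share 95.1% of their coding bases, while Saa1 and Saa3 share 74.3% and Saa1 and Saa4 share 63.2%. Of all windows of 50 bases, 14.8% of the Saa1 transcript and 13.3% of the Saa2 transcript recur exactly in the transcript of another gene, against 1.78% for Saa3. How such shared reads were counted is not given, so the division of counts between Saa1 and Saa2 is uncertain. The stretch of 60 coding bases with most differences, bases 90 to 149 counted from the A of the start codon, is shown because reads over it can tell the paralogs apart, with the 7 differing bases in capitals, from GENCODE transcripts of GRCm38.
Saa1: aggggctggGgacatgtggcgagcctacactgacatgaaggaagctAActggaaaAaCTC
Saa2: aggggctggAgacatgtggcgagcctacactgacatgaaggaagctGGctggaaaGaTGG

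Saa1 and Saa2 varied together over the libraries and Saa3 did not vary with them. Whether promoter sequence has a part in this pattern was not tested. The promoters of the cluster are shown for description. Each is the 250 bases before the RefSeq start site (GRCm38.p6), 5′ to 3′ on the gene's strand, and capitals mark matches to TTGCNNAA on either strand, a core bound by C/EBP factors. They lie at chr7:46742981-46743230 (minus) for Saa1, chr7:46751583-46751832 (plus) for Saa2, chr7:46715677-46715926 (minus) for Saa3 and chr7:46732604-46732853 (minus) for Saa4.
Saa1: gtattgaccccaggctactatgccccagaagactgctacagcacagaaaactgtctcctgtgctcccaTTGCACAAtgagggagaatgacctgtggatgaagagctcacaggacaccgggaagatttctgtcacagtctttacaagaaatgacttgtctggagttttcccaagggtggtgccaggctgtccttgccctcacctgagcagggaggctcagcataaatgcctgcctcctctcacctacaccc
Saa2: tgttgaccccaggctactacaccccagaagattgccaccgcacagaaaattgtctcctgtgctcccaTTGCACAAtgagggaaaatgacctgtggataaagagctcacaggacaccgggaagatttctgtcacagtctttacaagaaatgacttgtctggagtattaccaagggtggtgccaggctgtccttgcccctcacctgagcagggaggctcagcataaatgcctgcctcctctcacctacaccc
Saa3: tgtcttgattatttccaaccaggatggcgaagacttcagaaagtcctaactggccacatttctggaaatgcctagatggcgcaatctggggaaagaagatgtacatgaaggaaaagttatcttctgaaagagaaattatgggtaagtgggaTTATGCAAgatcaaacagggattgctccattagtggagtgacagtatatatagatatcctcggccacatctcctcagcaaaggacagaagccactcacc
Saa4: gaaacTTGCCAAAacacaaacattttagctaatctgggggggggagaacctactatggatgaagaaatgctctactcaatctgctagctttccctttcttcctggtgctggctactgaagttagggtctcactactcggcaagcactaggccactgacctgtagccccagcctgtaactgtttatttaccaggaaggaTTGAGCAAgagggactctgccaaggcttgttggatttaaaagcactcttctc

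The Saa1 and Saa2 promoters were 94.8% identical, and their match to TTGCNNAA lay at the same place, 182 to 175 and 183 to 176 bases before the start. Saa1 and Saa3 promoters were 47.1% identical. Promoters of 7 members were in the RefSeq table, and TTGCNNAA was found in 5 of them, the 4 Saa genes and Orm2, while 9.57% of all 32817 promoters of that length held it. The STAT core TTCNNNGAA was found in Apcs and Itih4 (7.01% of all promoters), and CTGGGAA, the core of an interleukin-6 response element, in Apcs (9.10%). Neither an NF-kB core (4.11%) nor GTTAAT, part of an HNF1 site (6.44%), was found in any of the 7. Both strands were searched for every motif, and matches of different motifs did not overlap. A match is a description of the letters and not a measured site.

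Saa1 and Saa2 were high in single libraries rather than in a genotype. Saa1 stood at 179, 54.8 and 73.6 normalised counts in KO replicates 1, 2 and 3, and at 51.5, 499 and 53.9 in WT replicates 1, 2 and 3. WT replicate 2 was highest, KO replicate 1 was second, and the other 4 libraries lay close together. Saa2 followed the same order at the top, with 28.3, 8.34 and 6.77 normalised counts in KO and 12.4, 123 and 7.30 in WT, on 7 to 117 reads a library. The ratio of Saa1 to Saa2 was 6.32, 6.57 and 10.9 in KO and 4.17, 4.06 and 7.38 in WT. The log2 difference was -0.32 for Saa1 (SE 0.82, limma adjusted p = 0.889) and -0.90 for Saa2 (SE 1.04, limma adjusted p = 0.717). Without WT replicate 2 the differences were 0.76 and 0.29, and without KO replicate 2 that of Saa1 was 0.04. On the recovered reads of all libraries Saa1 was at -1.05 with edgeR, -1.05 with DESeq2 and -0.26 with limma-voom. In the same order Saa2 was at -1.81, -1.80 and -0.76. WT replicate 2 and KO replicate 1 also had the highest erythroid marker levels of their groups, with summed levels of 268695, 104260 and 30738 in KO and 13178, 33339 and 2221 in WT over 7 of 8 listed genes. Limma called none of these 7, of which 6 had an unadjusted p under 0.05. The part of erythroid RNA in these values was not tested.

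Saa3 was the most abundant Saa transcript, at 8018, 7911 and 10162 normalised counts in KO and 7957, 4782 and 2436 in WT. The KO libraries lay close together and the WT libraries were spread, and WT replicate 1 reached the KO range. Its mean was 8697 ± 1270 in KO and 5059 ± 2771 in WT (SD, n = 3 each), a log2 difference of 0.93 (SE 0.38, 95% interval 0.09 to 1.78, limma adjusted p = 0.232). Without WT replicate 3 the difference was 0.49. Saa3 exceeded Saa1 by 44.9, 144 and 138 times in KO and by 154, 9.59 and 45.2 times in WT, in normalised counts of transcripts of similar length. Mesothelial markers, which mark the liver surface, did not pass either (8 of 8 above 0, none called by limma, 1 at an unadjusted p under 0.05, median log2 difference 0.77). Their sum was 4794, 4649 and 8931 in KO and 6470, 2042 and 3889 in WT. WT replicate 1 was highest among the WT libraries for these markers as for Saa3. The lowest WT library differed, being WT replicate 2 for these markers and WT replicate 3 for Saa3. Stellate cell markers were also highest of WT in WT replicate 1, with sums of 28856, 32069 and 52026 in KO and 24607, 18672 and 18299.5 in WT. The part of mesothelial or stellate cell RNA was not tested.

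Saa4 encodes a serum amyloid A that is made constantly rather than induced. It stood at 153, 78.6 and 211 normalised counts in KO and 25.8, 94.5 and 51.1 in WT, on 25 to 250 reads a library. WT replicate 2 lay above KO replicate 2, so the groups overlapped. The log2 difference was 1.43 (SE 0.53, 95% interval 0.24 to 2.62, limma adjusted p = 0.192). Among the Saa genes the standard error was thus smallest for Saa3 and largest for Saa2, the genes of most and fewest reads.

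Haptoglobin binds free haemoglobin, and the complex is cleared by macrophages through CD163. Hp (ENSMUSG00000031722, chromosome 8, 109575128 to 109579172, minus strand, 5 exons in the kept transcript) stood at 11548, 13240 and 18809.9 normalised counts in KO and at 18963, 22301 and 8067 in WT. The WT libraries enclosed all KO libraries. The mean was 14532 ± 3800 in KO and 16444 ± 7444 in WT (SD, n = 3 each), with a log2 difference of -0.08 (SE 0.39, 95% interval -0.97 to 0.80, limma adjusted p = 0.944). The sign turned without KO replicate 1, WT replicate 1 or WT replicate 2, at 0.07, 0.08 and 0.20. Neutrophils also carry haptoglobin in their granules, and 10 of 12 neutrophil markers were below 0, with none called by limma and 2 at an unadjusted p under 0.05 (median -0.32). The summed level of these markers was 18372, 11148 and 10559 in KO and 17613, 17934 and 12560 in WT, and none of them was at 0 in all libraries. The part of neutrophil RNA in the Hp values was not tested. Cd163, named after its values were seen, stood at 749 ± 152 in KO and 865 ± 264 in WT (SD, n = 3 each), with a log2 difference of -0.18.

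The alpha-1-acid glycoproteins are plasma carriers of drugs and lipids. Orm1 (ENSMUSG00000039196, chromosome 4, 63344560 to 63348163) and Orm2 (ENSMUSG00000061540, 63362449 to 63365878) lie side by side on the plus strand. Orm1 stood at 789.6, 821 and 1055 normalised counts in KO and at 594, 752 and 170 in WT. It was the only member whose KO libraries all lay above all WT libraries, which 13.7% of all tested genes did (9.25% lay the other way), and the gap between the groups was small. The log2 difference was 1.05 (SE 0.47, 95% interval -0.0043 to 2.11, limma adjusted p = 0.28), and without WT replicate 3 it was 0.40. Orm2 stood at 38.7, 0 and 21.1 in KO and at 19.6, 39.9 and 22.5 in WT, on at most 40 reads. For KO replicate 2 a count of 0 allows up to 3 reads, or 3.57 normalised counts, by counting error alone. The log2 difference of Orm2, -1.50 (SE 1.24, limma adjusted p = 0.593), rests on that library, since without it the value was 0.13. The coding sequences of Orm1 and Orm2 are 89.9% identical, and 20.4% of the 50-base windows of Orm1 and 22.7% of those of Orm2 recur in other genes, so reads may be split between them.

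Serum amyloid P is a pentraxin and a major acute phase reactant of the mouse. Apcs (ENSMUSG00000026542, chromosome 1, 172893961 to 172895041, minus strand) stood at 128, 107 and 78.6 normalised counts in KO and at 53.6, 141 and 24.1 in WT. WT replicate 2 was the highest library of all, and the 2 other WT libraries were the lowest. The log2 difference was 0.84 (SE 0.58, 95% interval -0.46 to 2.14, limma adjusted p = 0.505). It was 1.48 without WT replicate 2 and 0.24 without WT replicate 3. The related pentraxin Crp, which responds strongly in humans and little in mice, stood at 182, 262 and 501 in KO and at 93.7, 249 and 58.4 in WT. It was named after its values were seen and did not pass either (log2 difference 1.37, limma adjusted p = 0.217).

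Lipopolysaccharide-binding protein hands bacterial lipopolysaccharide to CD14 and TLR4. Lbp (ENSMUSG00000016024, chromosome 2, 158306493 to 158332852, plus strand) stood at 471, 892 and 813 normalised counts in KO and at 366, 488 and 240 in WT. KO replicates 2 and 3 were above all WT libraries, and KO replicate 1 was just below WT replicate 2. The log2 difference was 0.995 (SE 0.32, 95% interval 0.28 to 1.71), the smallest p among the members, with a limma adjusted p of 0.131. Without KO replicate 1 Lbp passed, at a log2 difference of 1.28 and a limma adjusted p of 0.0453. In that fit 809 of 16220 genes were called, beside 381 of 15619 with all libraries. KO replicates 2 and 3 exceeded every WT library in each of the 5 Lbp transcripts in the files. Endothelial markers had the same order of libraries within KO and within WT, with sums of 61588, 125283 and 94088 in KO and 36203, 56627 and 29785 in WT over 12 genes. The part of endothelial RNA in the Lbp values was not tested. Cd14 stood at 4489 ± 833 in KO and 3017 ± 986 in WT, and Tlr4 at 339 ± 122 in KO and 404 ± 92.1 in WT (SD, n = 3 each). Neither passed, and both were named after their values were seen.

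Itih4 encodes a heavy chain that, unlike its relatives, lacks the link to bikunin, and it is cleaved by plasma kallikrein. Itih4 (ENSMUSG00000021922, chromosome 14, 30886502 to 30901948, plus strand, 22 exons in the kept transcript) stood at 1666, 2670 and 4106 normalised counts in KO and at 994, 2046 and 431 in WT. WT replicate 2 lay above KO replicate 1, and the other libraries were parted by genotype. The mean was 2814 ± 1226 in KO and 1157 ± 820 in WT (SD, n = 3 each), a log2 difference of 1.46 (SE 0.51, 95% interval 0.31 to 2.61, limma adjusted p = 0.171). Without WT replicate 3 the difference was 0.88. Its 4 transcripts in the files held nearly equal values in every library. Of the 6 genes in its family list, which includes Ambp, the precursor of bikunin, all were above 0 and 1 rose. That gene was Itih2, at 1525 ± 441 in KO and 484 ± 203 in WT (SD, n = 3 each, log2 difference 1.72, SE 0.35, limma adjusted p = 0.0444). Itih3, a heavy chain that is linked to bikunin, had a log2 difference of 1.10 and did not pass.

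Alb itself stood at 64233, 88350 and 115980.5 normalised counts in KO and at 50721, 60777 and 18082 in WT. All KO libraries were above all WT libraries, with KO replicate 3 highest and WT replicate 3 lowest. The log2 difference was 1.19 (SE 0.53, 95% interval -0.01 to 2.39) and did not pass, at a limma adjusted p of 0.283. Without WT replicate 3 it was 0.65. Setting all genes against Alb lowered the median log2 difference of all tested genes to -1.14, so values on that scale are read against -1.14. On this scale 0.269% of 15618 genes were called, 0.0256% higher and 0.243% lower in KO.

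Relative to Alb none of the 10 members was called by limma, 3 had an unadjusted p under 0.05 (24.1% of all genes did), and the median difference of the members was -0.30. The 3 were Saa1, Hp and Orm2, at log2 differences of -1.50, -1.27 and -2.68, and Saa2 stood at -2.08. Without WT replicate 2 the values of Saa1 and Saa2 were -0.76 and -1.23. Without KO replicate 2, where Orm2 had 0 reads, that of Orm2 was -1.04. Of all members 8 were below 0, as were most tested genes, since 7.42% of genes lay above 0. Saa3, Saa4, Orm1, Apcs, Lbp and Itih4 had log2 differences relative to Alb of -0.25, 0.24, -0.13, -0.35, -0.19 and 0.27. The intervals of these 6 all reached to 1.01 or further above 0 and to -1.07 or further below it. The number of all genes called on this scale, 42, was 35, 1 and 1 when KO replicate 1, 2 or 3 was left out, and 13, 87 and 412 when WT replicate 1, 2 or 3 was left out. Taken relative to the mean of the hepatocyte markers in place of Alb, 8 members were called lower in KO, where 87.7% of genes were called. Saa4 and Itih4 were also below 0, at -0.63 and -0.60, and were not called. The median of the members was -1.18 there, beside -2.02 over all genes.

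**Figure D2:**
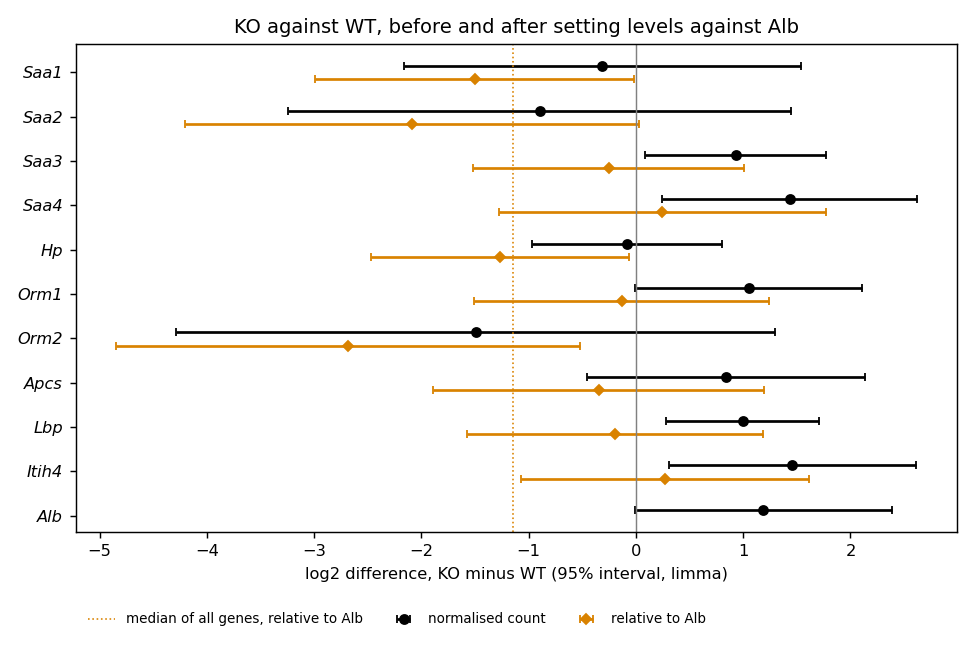
Log2 difference, KO minus WT, with the 95% interval from limma, for each gene as it stood (black circles) and relative to Alb (orange diamonds); the dotted line is the median of all tested genes relative to Alb, -1.14. Hp lies near 0 as it stood and near the dotted line relative to Alb, while Itih4, Lbp and Orm1 lie near 1 or above as they stood and near 0 relative to Alb.

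Hp was the member that parted most evenly from Alb. It stood at 180, 150 and 162 normalised counts per 1000 of Alb in KO and at 374, 367 and 446 in WT. The KO values were all below the lowest WT value. Of all tested genes 34.3% had every KO library below every WT library on this scale and 0.679% the reverse, so that 35.0% did not overlap. The mean was 164 ± 15.0 in KO and 396 ± 43.9 in WT (SD, n = 3 each), a log2 difference of -1.27 (SE 0.61, 95% interval -2.47 to -0.07). The limma adjusted p was 0.206. An exact two-sided permutation test of the 6 ratios gave p = 0.1, the smallest that 3 against 3 libraries can give. Any gene without overlap gives this value, so the test adds nothing to the separation above. Hp was picked after its values were seen, and its -1.27 is read against the all-gene median of -1.14.

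Orm1 kept a nearly constant ratio to Alb in all 6 libraries. It stood at 12.3, 9.29 and 9.10 per 1000 of Alb in KO and at 11.7, 12.4 and 9.41 in WT, and the groups overlapped. Itih4 stood at 25.9, 30.2 and 35.4 per 1000 of Alb in KO and at 19.6, 33.7 and 23.8 in WT. Lbp stood at 7.33, 10.1 and 7.01 in KO and at 7.21, 8.03 and 13.3 in WT. Saa3 stood at 125, 89.5 and 87.6 in KO and at 157, 78.7 and 135 in WT. For these 4 genes the groups overlapped relative to Alb. Saa1 stood at 2.78, 0.62 and 0.63 per 1000 of Alb in KO and at 1.02, 8.21 and 2.98 in WT, again highest in WT replicate 2.

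**Figure D3:**
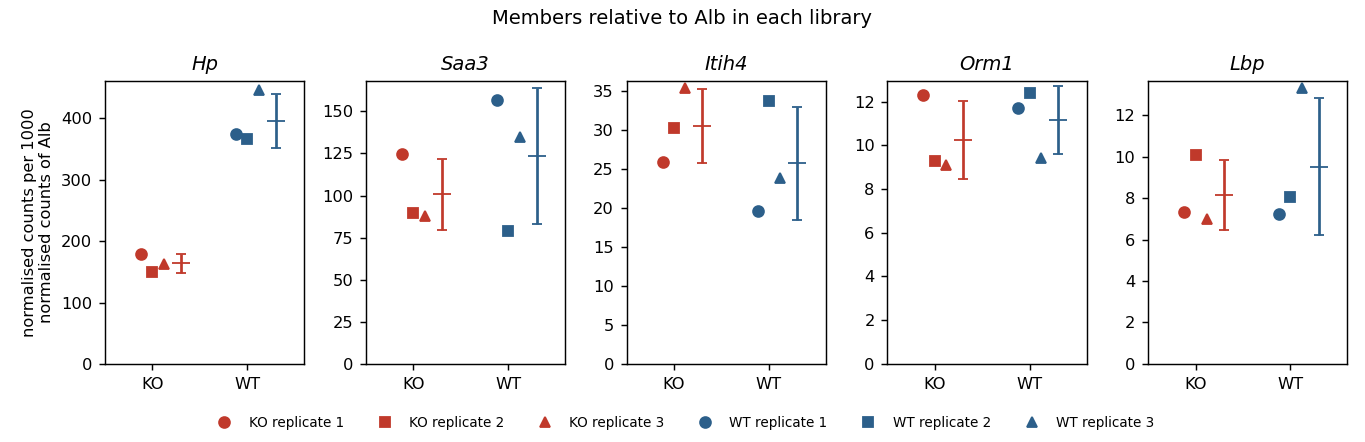
Normalised counts per 1000 normalised counts of Alb, 1 symbol per library, with the mean and SD of 3 libraries beside them (KO left, WT right, axes from 0). Hp is at 150 to 180 in KO and 367 to 446 in WT, whereas the other 4 genes overlap between the groups.

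The genes of most similar pattern were sought by the root mean square difference of log2 levels over the 6 libraries, each gene centred on its own mean. For Orm1 the most similar of all 15618 other genes was Alb, at a difference of 0.20, and for Itih4 Alb ranked 46, at 0.30. Alb ranked 178 for Saa3, 230 for Apcs, 603 for Lbp and 2444 for Saa4. For Hp, Saa1, Saa2 and Orm2 it ranked 8210, 10730, 11469 and 13525. The 10 genes thus differed in how close they stood to Alb, and similarity among the members was not tested. Saa2 and Orm2 had few reads, 7 to 117 and 0 to 40 a library, and Orm2 was at 0 in KO replicate 2.

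The genes closest to Itih4 were Apof, Azgp1 and Serpinf1, at 0.08, 0.14 and 0.15, all of which encode secreted proteins. The genes closest to Lbp were F2r, a thrombin receptor, Hecw2, a ubiquitin ligase, and Tfpi, an inhibitor of coagulation, at 0.07, 0.07 and 0.08. The genes closest to Hp were Gm38317, F10 (coagulation factor X) and Cfb (complement factor B), at 0.14, 0.14 and 0.15. Cfb stood at 4560, 4866 and 7623 normalised counts in KO and at 8191, 6937 and 2830 in WT, with WT libraries on either side of the KO libraries as for Hp. The genes closest to Orm1 after Alb were 1810024B03Rik and Mbl2, a plasma lectin, both at 0.21. Saa1 had Tnni3, Saa2 and Ank1 at 0.44, 0.44 and 0.57, and Saa2 had Saa1, Tnni3 and Tcf21 at 0.44, 0.70 and 0.71. Ank1 encodes the ankyrin of red cells. The genes closest to the others were Ccdc122, Cetn4 and Doc2b for Saa3, Flywch2, Boc and Clstn3 for Saa4, Dnmt3aos, Serpina3i and Gm6166 for Apcs, and F2rl2, Itgb2l and Rad54b for Orm2, at 0.16 to 0.44.

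**Figure D4:**
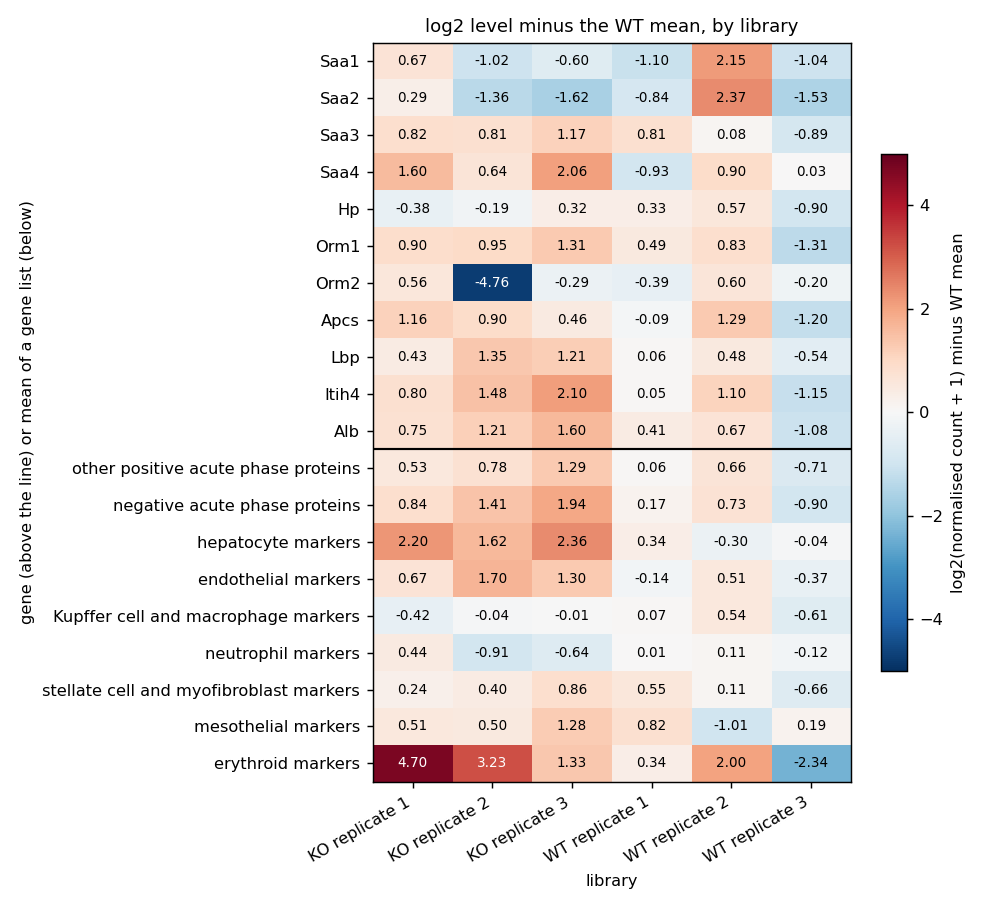
Log2(normalised count + 1) minus the WT mean in each library, KO libraries left and WT libraries right, for the 10 genes and Alb (above the line) and for the mean of gene lists (below). WT replicate 2 is highest for Saa1 and Saa2, at 2.15 and 2.37, and WT replicate 3 is lowest of the WT libraries for Hp, Orm1, Lbp, Itih4 and Alb.

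Among other positive acute phase proteins 1 of 18 tested genes rose and none fell. The estimated log2 differences were above 0 for all 18, from nearly 0 for Hamp2 and Cfb upwards, with a median of 0.91. The gene that rose was Mt2, a metallothionein that binds zinc and copper, at 471, 630 and 426 normalised counts in KO and at 224, 249 and 229 in WT (log2 difference 1.10, SE 0.22, limma adjusted p = 0.0397). Its neighbour Mt1 had a log2 difference of 0.91 and Fga, a fibrinogen chain, one of 1.81, and neither passed. Fga stood at 2342, 4218 and 8118 in KO and at 1307, 2626 and 545 in WT, the same order of libraries as Itih4.

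Of 10 negative acute phase proteins, Alb among them, 1 rose and none fell. The estimated log2 differences were above 0 for all 10, with a median of 1.41. The gene that rose was Rbp4, the plasma carrier of retinol, at 1861, 2101 and 3677 normalised counts in KO and at 839.6, 890.4 and 510 in WT (log2 difference 1.74, SE 0.30, limma adjusted p = 0.0253). Ttr, which encodes transthyretin, and Apoa1, the main apolipoprotein of high-density lipoprotein, had log2 differences of 1.44 and 2.23 with limma adjusted p of 0.0537 and 0.0549. Relative to Alb the median of this list was 0.23, with 7 genes above 0, beside -0.27 with 6 of 18 above 0 for the other positive acute phase proteins. Whether the lists differed from each other was not tested. The hepatocyte markers had 20 of 20 genes above 0, 13 of which rose, and a median of 2.29, for example Tat, a tyrosine-degrading enzyme, at 2.71 (SE 0.35, limma adjusted p = 0.0144).

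No call was made among the 9 tested of 12 listed inducing cytokines. Of these 9 genes 5 were above 0 and 4 below, with a median of 0.02. None passed limma's test and 1 had an unadjusted p under 0.05. Il11 and Il22 did not pass the filter, and Clcf1 was not found. Il22, named after its values were seen, stood at 17.9, 8.34 and 9.30 normalised counts in KO and at 0 in each WT library. It held at most 12 reads and was not tested. Il6, Il1b and Tnf, named as the main inducers after their values were seen, had log2 differences of 0.53, -0.48 and -0.12. Il6 stood at 293, 155 and 139 normalised counts in KO and at 133, 183 and 86.5 in WT, with overlap. The genes of smallest p were Il1a, Lif and Ctf1, at 1.08, 0.96 and 2.29. Ctf1 had few reads, 43, 12 and 18 in KO and 9, 0 and 22 in WT. Among 16 receptors and signal transducers 9 were above 0 and none passed, although 8 had an unadjusted p under 0.05. Il6ra, the interleukin-6 receptor, stood at 1938, 1768 and 1406 in KO and at 3321, 2600 and 3232 in WT without overlap (log2 difference -0.84, SE 0.19, limma adjusted p = 0.0543). Myd88 and Irak4, which carry signals of interleukin-1 and toll-like receptors, had differences of -0.67 and -0.61.

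Of 13 transcription factors that act on acute phase genes, 9 were above 0 and 3 rose, with a median of 1.32. They were Hnf4a, Nr1h4 and Foxa3, which hepatocytes express, at log2 differences of 2.79, 2.01 and 2.23 (limma adjusted p of 0.0205, 0.042 and 0.047). Hnf4a stood at 1167, 836 and 1253 normalised counts in KO and at 320, 80.9 and 140 in WT. Hepatocyte markers moved in the same direction, and their part was not tested. Cebpb, named after its values were seen, had a difference of -0.06. Among 17 tested receptors and partners of the proteins 6 were above 0 and none passed, with 5 at an unadjusted p under 0.05. Fpr2, a receptor of serum amyloid A, stood at 656, 301 and 283 in KO and at 1877, 1182 and 798 in WT without overlap (log2 difference -1.66, SE 0.38, limma adjusted p = 0.056). Fpr1, its formyl peptide relative, had a difference of -1.22, and Fcgr2b, an inhibitory Fc receptor, one of 1.23.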

How the data were processed

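Per the file headers, each deposited table holds normalised counts for 79382 Ensembl transcripts of 1 library. The unit is a normalised signal: the authors scaled whole reads by a single factor in each library, since 100% of values divided by the worth of 1 read came out whole, to within 0.001. Per the submitters' processing notes, bcl2fastq 2.17, STAR 2.4.0k, SAMtools, HTSeq 0.5.3, DESeq 1.8.3 and GRCm38.p4 were used, without roles. Their annotation release and counting options are unstated, and the kit was stranded per the labels' protocols. Transcripts were matched to GENCODE genes of GRCm38 (78332 matched, 1050 not), and none of the 10 kept member transcripts overlapped an exon of another gene.

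The test was limma 3.58.1 fitted to log2(value + 1) with an intensity trend, genotype being its only term, and genes kept by edgeR's filterByExpr on the recovered reads. The same fit was run after subtracting the log2 level of Alb of the same library. Fold changes of low genes depend on the added value and on the test. For Orm2 as it stood the log2 difference was -1.50 with 1 added, -1.82 with 0.5 and -0.80 with 5. It was -0.54 with edgeR, -0.53 with DESeq2 and -1.69 with limma-voom. Two-sided p-values were Benjamini-Hochberg adjusted across every tested gene, with calls under 0.05. Count tests on the recovered reads, in which 100% of values came out whole, were edgeR 4.0.16, which called 282 genes, DESeq2 1.42.0 and limma-voom. Only the limma fits, as they stood and relative to Alb, were run on simulated counts, with the same dispersion for every gene. Differences in cell content between libraries were not simulated. That run therefore does not show how the fits behave on these libraries.

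The members and the 17 other gene lists were chosen with earlier results of these data known. Named were all members, Alb, up to 6 called genes and at least the 3 of smallest p per list, with further marker genes given as list values only, and for each member the 3 genes of most similar pattern.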

Additional observations from a re-analysis of the deposited data

How the results depend on the processing

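No member was called in 15 of 16 alternatives to the comparison as it stood, edgeR and DESeq2 among them, and 1, Lbp, was called without KO replicate 1, so that the number of called members was 0 to 1 when a library was left out. Over all genes, 381 calls became 233 with a gene's transcripts summed and 1409 with DESeq2, and were 8 to 809 when a library was left out. Relative to Alb, 42 calls over all genes became 65 with transcripts summed, 3 with a replicate block and 13684 relative to the hepatocyte markers, and were 1 to 412 when a library was left out. Relative to the hepatocyte markers 8 members were called, and the signs of Itih4 and Saa4 turned, to -0.60 and -0.63, since these markers differed more than Alb between the groups. No member was called relative to Alb in the other 12 alternatives. Of the calls over all genes, 85.6% were higher in KO with the authors' factors, 76.1% with TMM factors and 78.0% with edgeR. With a library left out, values as they stood ran from -0.53 to 0.20 for Hp, -2.52 to 0.13 for Orm2, -0.87 to 0.76 for Saa1 and -1.66 to 0.29 for Saa2, and relative to Alb from -0.73 to 0.049 for Apcs, -0.37 to 0.077 for Lbp and -0.43 to 0.80 for Saa4. Without WT replicate 3 the values of Saa3, Orm1, Apcs, Itih4 and Alb as they stood were 0.49, 0.40, 0.24, 0.88 and 0.65. The cause of these changes was not tested. Whether the replicate numbers pair the samples could not be settled from 3 libraries per group. Deviations of same-numbered libraries correlated at -0.0148, 0.0878 and -0.142 over 15619 genes. Replicate 2 correlated best with its own number, and replicates 1 and 3 did not. With a replicate block 539 genes and no member were called as they stood. Saa2 was not tested when a CPM of at least 1 was required.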
